A study of Sorghum bicolor with 34 samples.

Results

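The response of the elongation zone of the sorghum primary (seminal) root to limiting phosphorus was taken from 4 RNA-seq libraries, 2 from plants on limiting phosphorus (LP, 2.5 μM phosphate) and 2 from plants on sufficient phosphorus (SP, 45 μM phosphate). They were chosen by their labels, which name the intermediate root and the phosphorus level, out of 10 RNA-seq libraries and 34 samples in the series. All plants were of BTx623, an inbred sorghum line, grown in hydroponics with no other genotype or agent, and were collected at day 10. The segment ran from 2 to 4 cm behind the root tip, next to the first 2 cm taken as root apex, and each replicate pooled the roots of 10 plants. The other RNA-seq libraries were 4 of the root apex and 2 of the lateral root apex, at the same phosphorus levels.

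In the elongation zone, cells that have left the meristem expand, mainly lengthwise, before they mature. Plants that lack phosphate save and recover it by several routes that are best known from Arabidopsis. They take apart phospholipids and build galactolipids and sulfolipids in their place, secrete phosphatases that free phosphate from esters, and make transporters for phosphate and glycerol phosphate. SPX proteins bind inositol pyrophosphates and, while phosphate is ample, hold back the PHR transcription factors that switch these genes on. PHO2, an E2 ubiquitin conjugase, limits phosphate transport and loading into the shoot.

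Each library listed 47110 transcripts, and the 4 elongation zone libraries held 10423908 to 19067049 estimated counts. LP replicate 2 stood apart from the other 3 libraries. It detected 27578 transcripts, against 33440 to 36028 in the others. In LP replicate 2, 1123 transcripts had no count while all other elongation zone libraries held at least 1 CPM. CPM are counts scaled to library size as adjusted by TMM normalization factors. The log2 CPM values of the SP replicates correlated with Pearson's r = 0.939 across transcripts, and those of the LP replicates with r = 0.817. LP replicate 1 correlated more closely with the SP libraries (r = 0.871 and 0.865) than with LP replicate 2, which had r = 0.787 and 0.808 to the SP libraries. The estimated fragment length, taken as the median of length minus effective length, was 167 bases in SP replicate 2 and 168 in LP replicate 2, against 186 and 187 in the replicates numbered 1. It therefore differed between replicates and not between phosphorus levels. None of the marker lists used here is specific to elongating cells. A list of 6 transcripts matched to cell division genes summed to 152 to 296 TPM (counts scaled to transcript length and library size) in the elongation zone and to 88.7 to 207 TPM in the root apex, with the largest share of the elongation zone sum in EER98994. Single members differed between the segments. EER90980 was at 2.25 to 4.18 TPM in the elongation zone libraries and at 23.1 to 50.6 TPM in those of the root apex, with no overlap. EER98994, matched to the same Arabidopsis gene, went the other way. It was at 98.6 to 218.7 TPM in the elongation zone and at 16.8 to 66.7 TPM in the root apex, also with no overlap. The segments overlapped in the remaining members. A list matched to genes of green tissue summed to 11.5 to 16.5 TPM in the elongation zone libraries. Its transcript EES10316, matched to Rubisco activase, was at 1.75 and 1.17 TPM in SP and at 1.95 and 0.606 TPM in LP, and the ranges of the phosphorus levels overlapped.

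**Figure D1:**
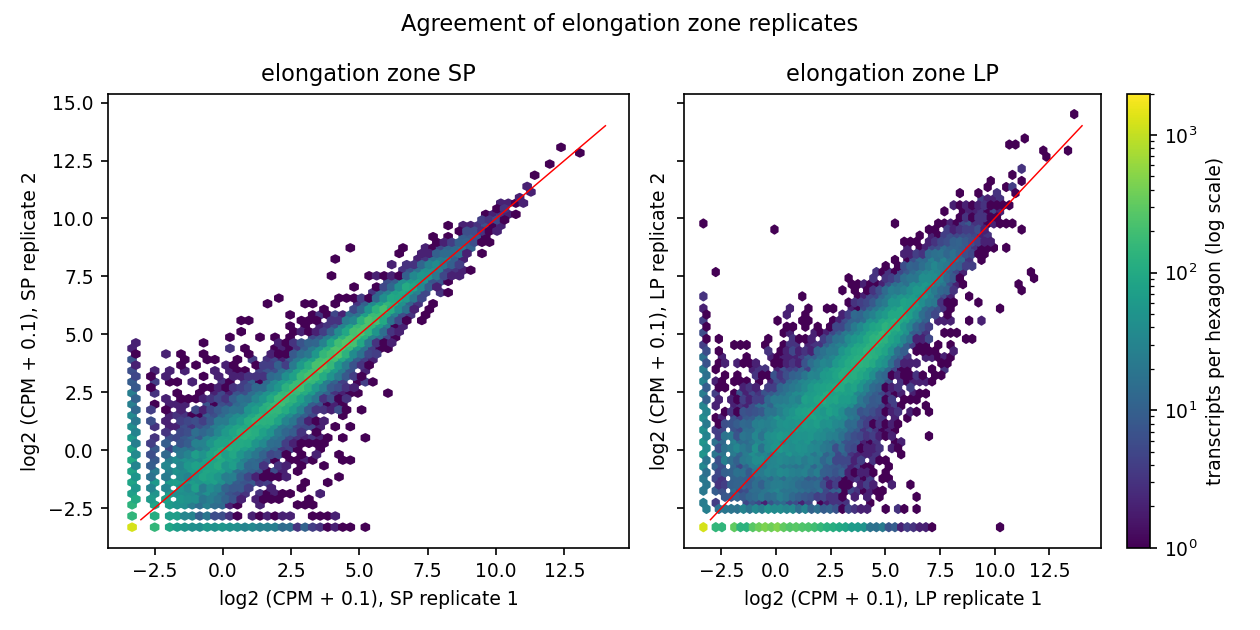
Each panel sets replicate 1 (x axis) against replicate 2 (y axis) of the elongation zone at 1 phosphorus level, as log2 of CPM plus 0.1, with the number of transcripts per hexagon in colour and the line of equality in red. The LP cloud is wider than the SP cloud, and a row of transcripts lies at the bottom of the LP panel, at 0 in LP replicate 2 only.

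The main question was which transcripts differed between LP and SP. Of 33039 transcripts tested, 137 rose under LP (0.415% of those tested) and 77 fell (0.233%), together 0.648%, by edgeR's quasi-likelihood test at an adjusted p under 0.05. The median log2 fold change over all tested transcripts was 0.01, which the TMM scaling places near 0. The transcripts that rose had a median log2 fold change of 3.66, with a range from 1.50 to 12.11, and those that fell had a median of -3.62, with a range from -12.35 to -1.61. In all 214 the LP and SP libraries did not overlap. This holds of many transcripts that were not called, since 21.3% of those tested were higher in both LP libraries than in both SP libraries and 24.5% were lower in both.

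The transcripts that rose differed in their level with ample phosphate. The mean in SP was under 1 CPM for 35 of the 137 and over 10 CPM for 48. In LP the mean was over 10 CPM for 128 of the 137. The CPM of the 137 summed to 1602 and 1800 in the SP libraries and to 18151 and 26293 in the LP libraries. The most abundant of them, which the sources pair with no gene, was at 12.1 and 31.3 CPM in SP and at 4796 and 8398 CPM in LP. Its log2 fold change was 8.24 (edgeR, adjusted p = 0.0251). Of the 77 that fell, 26 had a mean under 1 CPM in LP, 15 had no count in either LP library and 14 had a mean over 10 CPM in LP. Their CPM summed to 3755 and 4939 in SP and to 519 and 485 in LP. Since the transcripts were chosen for their difference, these counts and sums describe its size only. The shares of all tested transcripts at these levels were not taken. In tissue samples such as these, fewer cells of a type and less RNA per cell cannot be told apart.

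**Figure D2:**
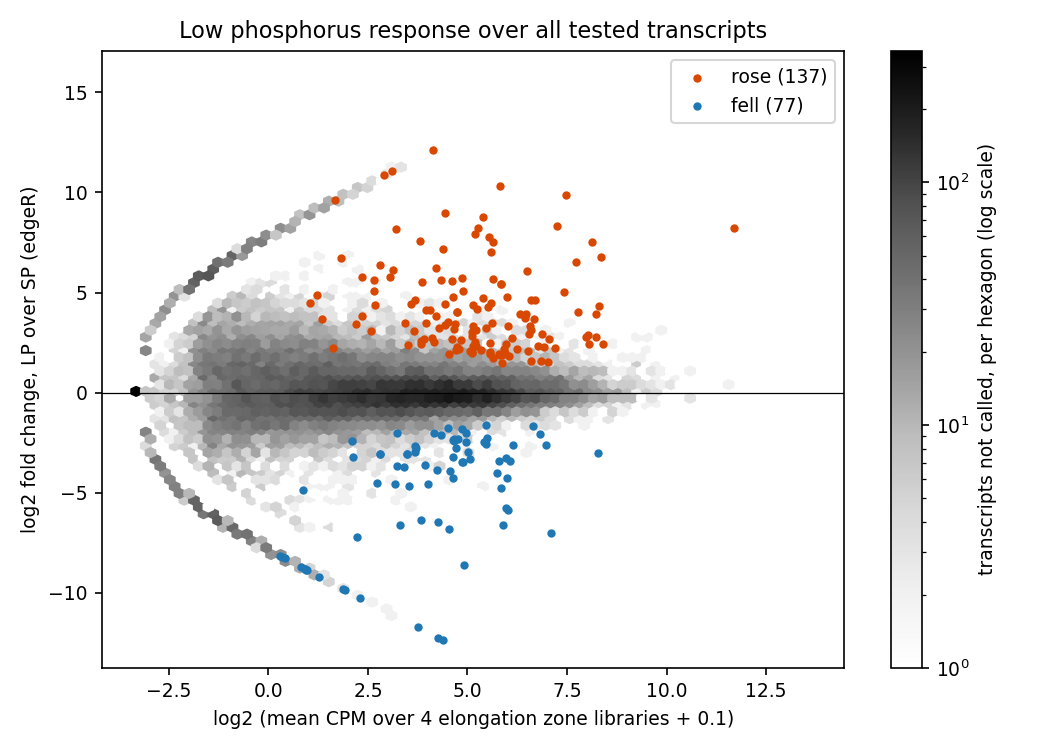
The log2 fold change of LP over SP (y axis) is plotted against log2 of the mean CPM of the 4 elongation zone libraries plus 0.1 (x axis) for 33039 transcripts, in grey by the number per hexagon where not called. The 137 transcripts that rose (orange) and the 77 that fell (blue) spread over most of the range of abundance, and the curved outer arms are transcripts with no count in 1 of the phosphorus levels.

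The number of calls rested on the libraries in the fit. With the 4 elongation zone libraries alone no transcript passed in edgeR, with 3403 at an unadjusted p under 0.05 (4831, or 14.6%, in the fit of all 10 libraries). Without LP replicate 2, 96 rose and 45 fell, and 89 of these 141 were among the 214. The count was 0 without SP replicate 1 (2610 at an unadjusted p under 0.05) and 0 without SP replicate 2 (2755), and 4192 without LP replicate 1. It was 17 or 18 without a root apex SP library and 53 or 54 without a root apex LP library. No called transcript changed sign under any of these fits. As the LP and SP libraries did not overlap in any of them, the fits left little room for such a change, so this is no separate support.

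Only 775 transcripts (1.65%) could be paired with a gene, and of the 214 called, 200 had no gene. The paired transcripts come from tables that the study put together in part from these samples, so their number of calls is not independent evidence. Of the 638 paired transcripts tested, 11 rose and 3 fell (2.19%, against 0.648% of all tested). The called ones are named below by an Arabidopsis match or a protein domain from those tables, except EER89013, whose role was left out. Roles named with a match are those known in Arabidopsis.

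Of 27 transcripts on 4 lists of phosphate genes, 26 were tested, and 8 rose and none fell in edgeR. The share that rose was 30.8%, against 1.72% of the paired transcripts and 0.415% of all transcripts. As the lists were chosen with earlier results of these data known, these shares are not independent evidence. At an unadjusted p under 0.05, 14 of the 26 were higher and 1 was lower. With DESeq2, 11 rose and 1 fell, the PHO2 match EES19930. Without LP replicate 2, 9 rose, and in the elongation zone libraries alone 0 did. Their median log2 fold change was 1.69. Of these 27, 6 had counts in LP replicate 1 and none in LP replicate 2.

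The largest rise on these lists was of a transcript for building lipids without phosphorus. EES14277 (SORBI_3007G211900) is matched to MGD3, a monogalactosyldiacylglycerol synthase that starts galactolipid synthesis under phosphate starvation. It was at 0.296 and 0.262 CPM in the SP libraries and at 40.8 and 42.0 CPM in the LP libraries. The levels were nearly equal within each phosphorus level and far apart between them, with a log2 fold change of 7.18 (SE 0.46; edgeR, adjusted p = 0.00764). The SP values rest on 4 and 6 counts. EES18158 (SORBI_3009G123300), matched to SQD1, which makes UDP-sulfoquinovose for sulfolipid, was at 4.73 and 3.63 CPM in SP and at 104 and 81.3 CPM in LP. Its log2 fold change was 4.47 (SE 0.40; edgeR, adjusted p = 0.0153). KXG22191 (SORBI_3009G168600) is matched to UGP3, which supplies the UDP-glucose used by SQD1. It stood at 3.84 and 2.36 CPM in SP and at 64.0 and 36.6 CPM in LP, a log2 fold change of 4.02 (SE 0.44; edgeR, adjusted p = 0.0251). For both of these matches to the sulfolipid route the LP and SP libraries did not overlap, as in all called transcripts.

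A second transcript matched to MGD3, EES05968 (SORBI_3004G334000), was already at 17.7 and 26.9 CPM in SP and was at 68.2 and 101 CPM in LP. Its log2 fold change of 1.92 (SE 0.31) had an adjusted p of 0.057 in edgeR and did not pass. The remaining 4 transcripts of that list are matched to PLDζ2, a phospholipase D that breaks down phospholipids, and none passed. OQU77834 (SORBI_3009G109925) was at 9.54 and 16.8 CPM in SP and at 10.7 and 6.94 CPM in LP, so that its groups overlapped. KXG32384 (SORBI_3003G147000) was at 4.88 and 8.91 CPM in SP, at 10.9 CPM in LP replicate 1 and at 0 in LP replicate 2. OQU77835 and OQU77836 (SORBI_3009G110000) were under 3 CPM in every library, and their CPM summed to 2.00 and 3.23 in SP and to 2.16 and 0.450 in LP.

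In signalling, both transcripts matched to SPX2, a phosphate sensor protein, rose. EES04719 (SORBI_3004G084900) was at 4.95 and 3.93 CPM in SP and at 123 CPM in each LP library, a log2 fold change of 4.80 (SE 0.37; edgeR, adjusted p = 0.0139). EER90017 (SORBI_3010G185200) was at 25.43 and 25.04 CPM in SP and at 453 and 376 CPM in LP, a log2 fold change of 4.04 (SE 0.30; edgeR, adjusted p = 0.0109). For both, the spread within a phosphorus level was small beside the difference between levels. The transcript matched to PHO2, EES19930 (SORBI_3009G228100), went the other way in its values without passing the test. It was at 263 and 333 CPM in SP and at 115 and 45.3 CPM in LP, with a log2 fold change of -1.90 (SE 0.44; edgeR, adjusted p = 0.123).

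The other 6 transcripts of the signalling list are matched to enzymes that make inositol phosphates, and none passed. EER92606 (SORBI_3001G447200), matched to an inositol tetrakisphosphate kinase, was at 4.58 and 4.81 CPM in SP and at 15.3 and 10.7 CPM in LP, with a log2 fold change of 1.47 (SE 0.42; edgeR, adjusted p = 0.197). EER91837 (SORBI_3001G278700), matched to the same Arabidopsis gene, was at 13.5 CPM in each SP library and at 19.9 and 32.7 CPM in LP. The third match, OQU91072 (SORBI_3001G106900), was at 8.43 and 6.82 CPM in SP and at 5.37 and 3.92 CPM in LP. Transcripts matched to the same gene thus had log2 fold changes of different sign, 0.96 for EER91837 and -0.71 for OQU91072, neither called. KXG37822, OQU87661 and OQU87662, matched to VIH, an inositol pyrophosphate synthase, had overlapping groups. Of these, KXG37822 was at 0 in both replicates numbered 2 and at 4.44 and 6.43 CPM in the SP and LP replicates numbered 1.

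Among transporters, EES13381 (SORBI_3007G045500) rose. It is matched to glycerol-3-phosphate permeases and was at 41.0 and 31.8 CPM in SP and at 485 and 639 CPM in LP, a log2 fold change of 3.95 (SE 0.44; edgeR, adjusted p = 0.0251). The gene SORBI_3006G173000, matched to the same permeases, has 2 transcripts whose share of the reads differed between the LP libraries. OQU82104 was at 0.370 and 0.830 CPM in SP and at 20.4 and 43.9 CPM in LP, with a log2 fold change of 5.69 (SE 1.19; edgeR, adjusted p = 0.0987). OQU82103 was at 1.11 and 0.66 CPM in SP, at 30.2 CPM in LP replicate 1 and at 0 in LP replicate 2. Summed over both transcripts, the gene was at 1.48 and 1.49 CPM in SP and at 50.6 and 43.9 CPM in LP. The sum was close between replicates where the single transcripts were not. It was not tested. KXG31062 (SORBI_3004G290900), a further match, had 5 counts in LP replicate 1, none elsewhere in the zone, and was not tested. EER88333 (SORBI_3010G133300), matched to the high-affinity phosphate transporter PHT1;8, was at 0.0739 and 0.131 CPM in SP and at 0.671 and 1.67 CPM in LP. The SP values rest on 1 and 3 counts, and it did not pass (edgeR, adjusted p = 0.275).

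Transcripts that free phosphate from esters or pyrophosphate also rose in part. EES18902 (SORBI_3009G016000), matched to a soluble inorganic pyrophosphatase, was at 72.9 and 91.7 CPM in SP and at 423 and 465 CPM in LP, a log2 fold change of 2.43 (SE 0.25; edgeR, adjusted p = 0.0228). EER97828 (SORBI_3002G004600) carries a calcineurin-like phosphoesterase domain and was at 3.11 and 4.37 CPM in SP and at 48.3 and 30.8 CPM in LP, a log2 fold change of 3.396 (SE 0.38; edgeR, adjusted p = 0.0251). OQU88994 (SORBI_3002G131200), matched to the same Arabidopsis gene, was at 3.03 and 4.54 CPM in SP and at 3.74 and 0.899 CPM in LP and did not pass. The gene SORBI_3003G314400 is matched to the purple acid phosphatase PAP10. Its transcript EES03706 was at 9.61 and 6.12 CPM in SP and at 59.1 and 27.1 CPM in LP, and with a log2 fold change of 2.46 (SE 0.50) it missed the threshold (edgeR, adjusted p = 0.0926). Its second transcript, OQU87648, had no count in either replicate numbered 2.

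Compared per length, as TPM, the 8 transcripts that rose reached different levels under LP. The SPX transcript EER90017 was highest, at 473 and 277 TPM, followed by the pyrophosphatase EES18902 at 243 and 190 TPM, the second SPX transcript EES04719 at 160 and 113 TPM and the permease match EES13381 at 75.2 and 70.8 TPM. The lipid enzymes were lower, with 51.8 and 28.8 TPM for the SQD1 match EES18158, 34.4 and 25.1 TPM for the MGD3 match EES14277 and 18.3 and 7.47 TPM for the UGP3 match KXG22191. The phosphoesterase EER97828 was at 22.1 and 10.0 TPM. The LP values of EES18158 and EES14277 overlapped across libraries, as did those of EER97828 and KXG22191. Within each LP library EES18158 was above EES14277 and EER97828 above KXG22191. Differences between these transcripts were not tested.

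**Figure D3:**
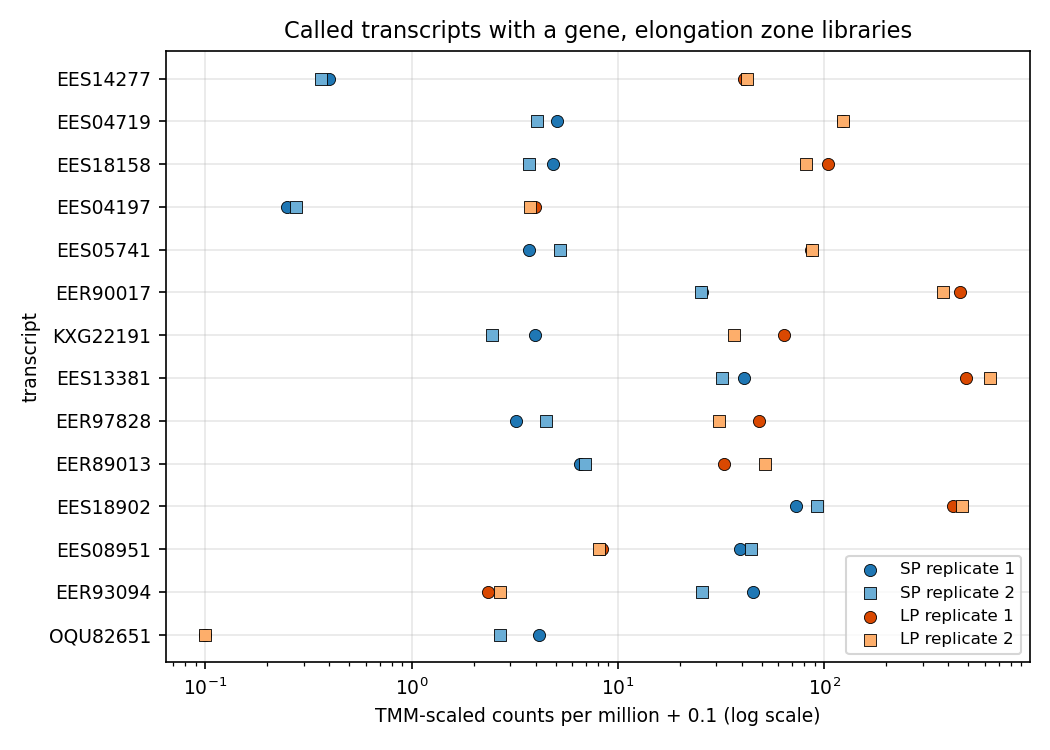
TMM-scaled CPM plus 0.1, on a log axis, of the 14 called transcripts that have a gene, in each elongation zone library (blue SP, orange LP, circles replicate 1, squares replicate 2). In each row the LP points lie apart from the SP points, and both LP points of OQU82651 lie at 0.1 because that transcript had no LP count.

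Of the paired transcripts outside the phosphate lists, 3 rose. EES05741 (SORBI_3004G284700) is matched to a member of the ALMT family of anion channels, some of which release malate. It was at 3.62 and 5.16 CPM in SP and at 86.5 and 86.8 CPM in LP, a log2 fold change of 4.30 (SE 0.34; edgeR, adjusted p = 0.0144). EES04197 (SORBI_3003G422000), matched to a beta-1,3-glucanase, a class of enzymes that cut callose and other glucans, was at 0.148 and 0.175 CPM in SP and at 3.88 and 3.66 CPM in LP. Its SP values rest on 2 and 4 counts, and its log2 fold change was 4.47 (SE 0.52; edgeR, adjusted p = 0.0285). EER89013 (SORBI_3010G278000) was at 6.43 and 6.82 CPM in SP and at 32.4 and 51.4 CPM in LP, a log2 fold change of 2.66 (SE 0.34; edgeR, adjusted p = 0.0356).

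The 3 paired transcripts that fell belong to different families. EER93094 (SORBI_3001G012000), a cytochrome P450, was at 44.8 and 25.6 CPM in SP and at 2.25 and 2.57 CPM in LP, a log2 fold change of -3.86 (SE 0.43; edgeR, adjusted p = 0.0251). EES08951 (SORBI_3005G209500) is matched to MCA2, which takes part in calcium uptake. It was at 39.0 and 44.2 CPM in SP and at 8.30 and 7.96 CPM in LP, a log2 fold change of -2.35 (SE 0.30; edgeR, adjusted p = 0.0354). OQU82651 (SORBI_3006G280900), with a RING-CH zinc finger, was at 4.07 and 2.58 CPM in SP and had no count in LP, at least 38.0-fold lower against a floor of 3 counts over both LP libraries (edgeR, adjusted p = 0.0441). These 3 and EER89013 did not pass without LP replicate 2, while the other 10 of the 14 did.

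Among called transcripts with no gene and a mean of at least 5 CPM, the largest rises and falls were of transcripts with no count at 1 of the phosphorus levels. KXG29285 had no SP count and was at 28.8 and 41.6 CPM in LP, at least 416-fold higher against 3 counts over both SP libraries (edgeR, adjusted p = 0.0378). EES16614 had no SP count and was at 12.04 and 21.9 CPM in LP, at least 197-fold higher (edgeR, adjusted p = 0.049). In the other direction, KXG31855 was at 37.5 and 45.1 CPM in SP and had no count in LP, at least 514-fold lower (edgeR, adjusted p = 0.0353). KXG34328 was at 26.4 and 50.2 CPM in SP with no count in LP, at least 503-fold lower (edgeR, adjusted p = 0.0251). Where a gene has several transcripts, such a value can also arise when its reads are assigned to another transcript, as with OQU82103, and for these 4 that was not tested.

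The next paired transcripts by size of change, at an unadjusted p under 0.05, did not pass the adjusted threshold. EER94063 (SORBI_3001G216500), with a Band 7 domain, was at 45.98 and 16.8 CPM in SP and at 0.288 and 0.449 CPM in LP. KXG33409 (SORBI_3003G301800), matched to PPC1, a phosphoenolpyruvate carboxylase that makes oxaloacetate, was at 17.7 and 16.2 CPM in SP and at 155 and 75.3 CPM in LP. Both lay on the border, with log2 fold changes of -6.40 and 2.76 and an adjusted p of 0.05004 each in edgeR. EES07601 (SORBI_3004G312500), matched to the nitrate reductase NIA2, was at 83.7 and 34.4 CPM in SP and at 6.04 and 8.48 CPM in LP, with a log2 fold change of -3.02 (edgeR, adjusted p = 0.0543).

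Other members of this group were less even between replicates. The beta-1,3-glucanase matches EES04194 (SORBI_3003G421700) and EES16254 (SORBI_3008G146700) were at 16.1 and 14.6 CPM in SP replicate 1 and at 305 and 182 CPM in SP replicate 2. In LP, EES04194 was at 2.93 and 6.10 CPM and EES16254 at 4.51 and 9.12 CPM, and neither passed (edgeR, adjusted p = 0.216 and 0.257). Their SP replicates thus differed more than 10-fold, and their values are opposite in direction to that of EES04197, which is matched to the same Arabidopsis gene. A receptor-like kinase match, EER99512 (SORBI_3002G333400), was at 1.33 and 1.36 CPM in SP and at 3.21 and 20.4 CPM in LP. A wall-associated kinase match, KXG32493 (SORBI_3003G161700), was at 6.43 and 15.2 CPM in SP and at 1.15 and 1.41 CPM in LP. OQU89986 (SORBI_3002G311601) went from 1.85 and 1.00 CPM to 8.73 and 11.8 CPM, EER93941 (SORBI_3001G195200), a cytochrome P450 match, from 2.59 and 2.40 CPM to 8.58 and 20.04 CPM, and EER91614 (SORBI_3001G247300) from 7.91 and 3.76 CPM to 27.3 and 38.3 CPM. Their adjusted p in edgeR ranged from 0.0712 to 0.225 over these 5.

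**Figure D4:**
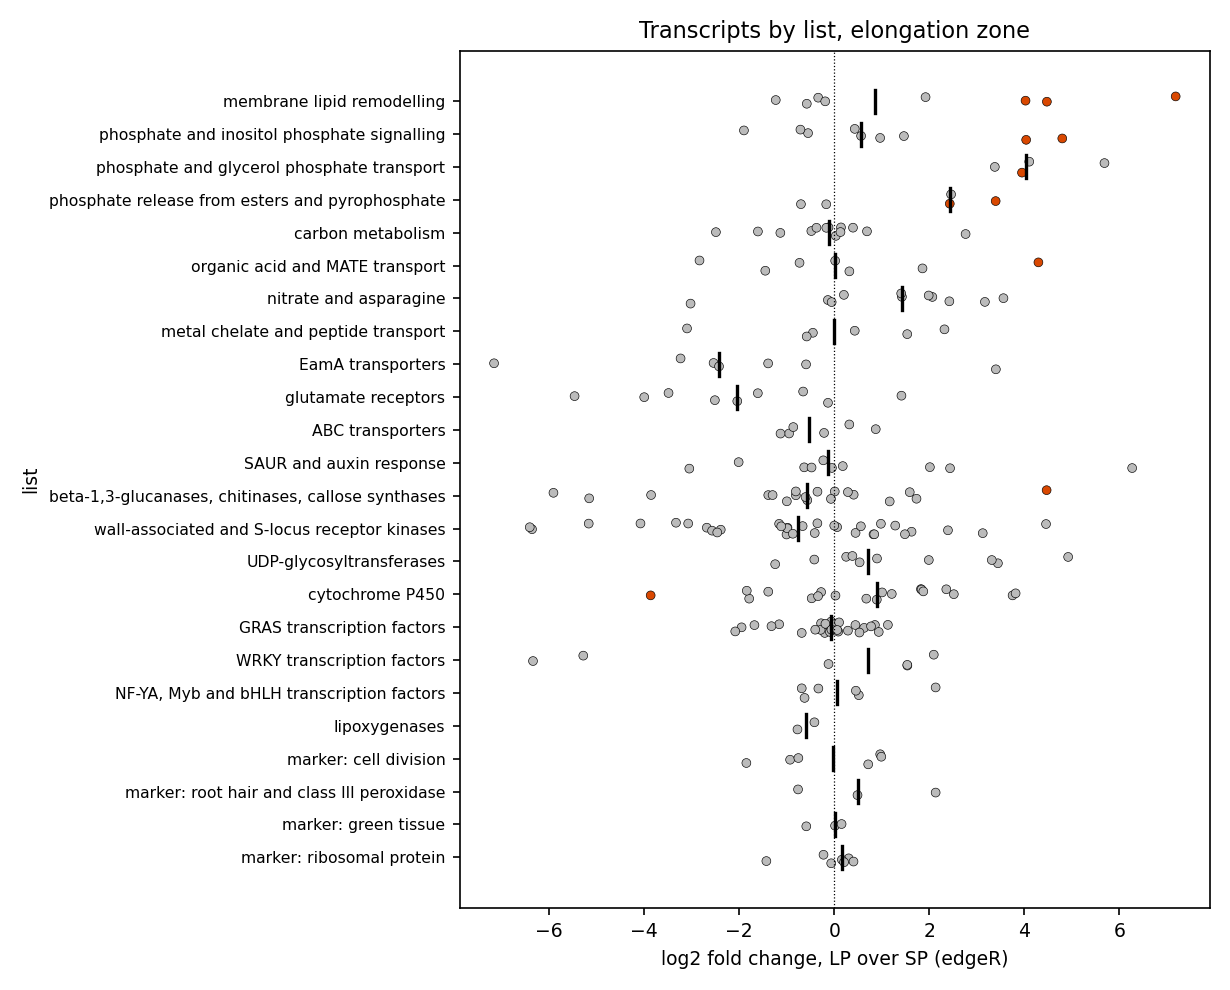
Log2 fold change of LP over SP in the elongation zone for each tested transcript of the lists (x axis), with 1 row per list (y axis), a black bar at the list's median and called transcripts in orange. Of the 11 called transcripts shown, 8 lie in the 4 phosphate lists at the top.

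Outside the phosphate lists, calls are read against the 0.648% of all tested transcripts that passed in edgeR, the 14.6% at an unadjusted p under 0.05 and the 6.6% that DESeq2 called. At 0.648%, lists of this size would hold few or no calls, so a count of 0 says nothing about a list. Among 7 tested transcripts for organic acid and MATE transport 1 rose, the ALMT match EES05741. Among 19 tested beta-1,3-glucanases, chitinases and callose synthases 1 rose in edgeR, but the list median was -0.57. At an unadjusted p under 0.05, 3 of them were higher and 5 lower, and with DESeq2 2 rose and 3 fell. Among 19 tested cytochromes P450 1 fell in edgeR, but the list median was 0.895. At an unadjusted p under 0.05, 7 of them were higher and 1 lower, and with DESeq2 3 rose and 1 fell. No transcript passed among 13 of carbon metabolism, 32 wall-associated and S-locus receptor kinases and 28 GRAS transcription factors, with list medians of -0.12, -0.77 and -0.08. In these lists 2, 5 and 2 transcripts had an unadjusted p under 0.05 in edgeR, and DESeq2 called 1, 2 and 1. The EamA transporters and glutamate receptors had the lowest medians, -2.42 over 7 transcripts and -2.04 over 9. Of these, 5 and 6 had a log2 fold change below -1, as did 16.4% of all tested transcripts, but none passed in edgeR. At an unadjusted p under 0.05 there were 3 EamA transporters and 4 glutamate receptors, and DESeq2 called 2 and 1. The most abundant EamA transcript, EES07591 (SORBI_3004G311000), was at 133 and 108 CPM in SP and at 51.9 and 40.1 CPM in LP, with a log2 fold change of -1.39 (SE 0.24; edgeR, adjusted p = 0.0688). Only 2 EamA transcripts reached a mean of 5 CPM, EES07591 and EER96762, the latter with a log2 fold change of -0.59. No glutamate receptor reached a mean of 5 CPM.

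The root apex and the lateral root apex, measured in other libraries, were set beside the elongation zone to see where its response differed. In the root apex 12 transcripts rose (0.0363%) and 60 fell (0.182%), and in the lateral root apex, with 1 library per level, 488 rose (1.48%) and 100 fell (0.303%). Of the 137 that rose in the elongation zone, 6 also rose in the root apex (4.38% of the 137 and 50.0% of the 12) and 42 in the lateral root apex (30.7% and 8.61%). Of the 77 that fell, 7 also fell in the root apex (9.09% and 11.7% of the 60) and 13 in the lateral root apex (16.9% and 13.0%). The median log2 fold change of the 137 was 3.66 in the elongation zone, 0.83 in the root apex and 1.84 in the lateral root apex, and that of the 77 was -3.62, -1.65 and -0.95. As the transcripts were picked by their values in the elongation zone, a smaller median elsewhere is no test.

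The difference in response itself passed in 4 transcripts between elongation zone and root apex (0.0121%) and in 282 between elongation zone and lateral root apex (0.854%), of which 162 had no count in the single lateral SP library. The 8 phosphate transcripts that rose, picked by the same values, had a median log2 fold change of 4.03 in the elongation zone, 1.31 in the root apex (0.46 to 4.28, 1 called) and 3.61 in the lateral root apex (2.20 to 11.64, 7 called). None of their differences between elongation zone and root apex passed, with adjusted p from 0.0646 to 0.262 in edgeR, and none of those to the lateral root apex passed. The SPX transcript EER90017 came nearest. It went from 25.43 and 25.04 to 453 and 376 CPM in the elongation zone, from 35.6 and 45.3 to 46.7 and 64.4 CPM in the root apex, and from 17.2 to 206 CPM in the lateral root apex. EES13381, the glycerol-3-phosphate permease match, was at 88.8 and 70.7 CPM in root apex SP and at 78.3 and 165 CPM in root apex LP, where its groups overlapped. The MGD3 match EES14277 rose in the root apex as well, from 0.527 and 0.273 to 7.27 and 8.36 CPM (edgeR, adjusted p = 0.0311), and went from 0 to 25.3 CPM in the lateral root apex.

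**Figure D5:**
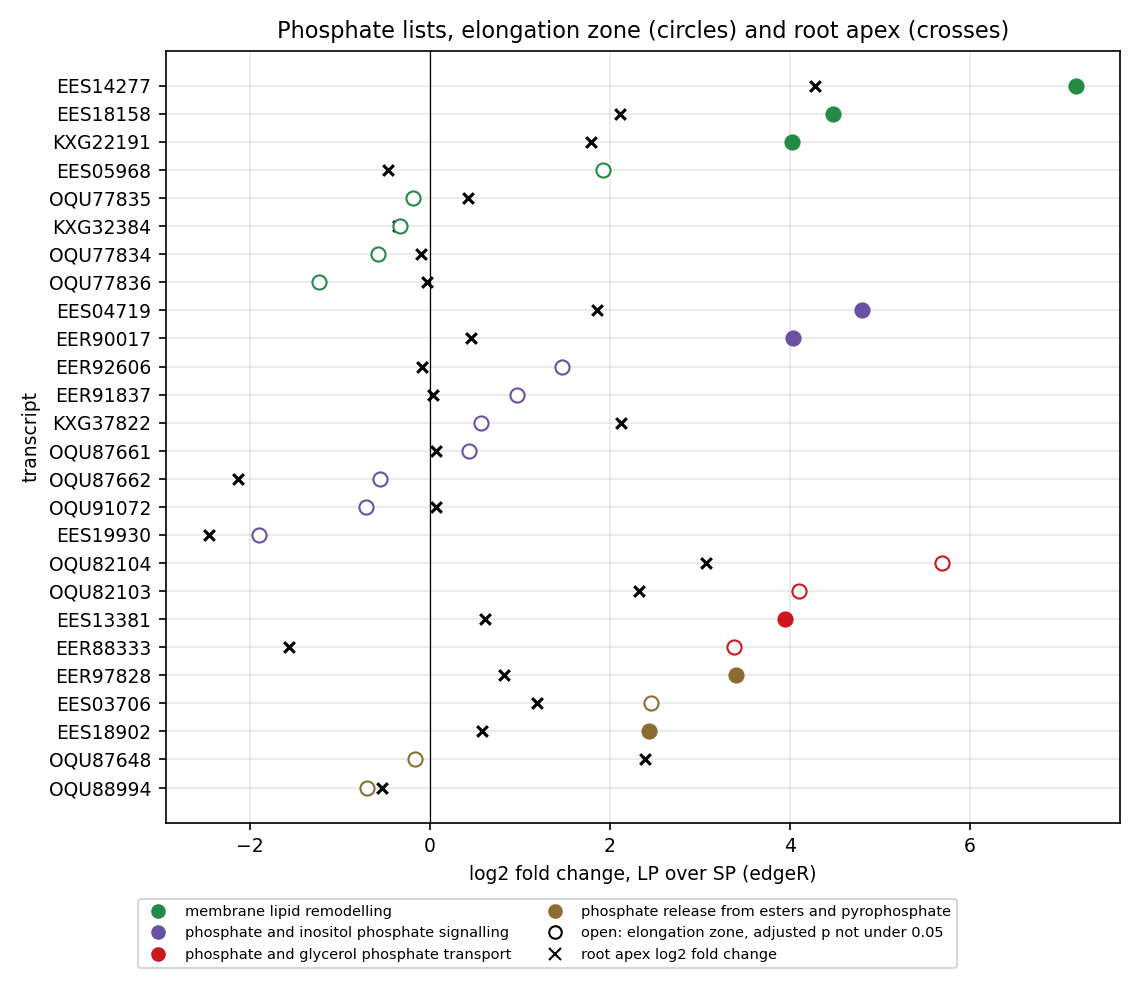
Log2 fold change of LP over SP (x axis) for the 26 tested transcripts of the 4 phosphate lists (y axis), with circles for the elongation zone, filled where the adjusted p was under 0.05, and crosses for the root apex. The 8 filled circles lie between 2.43 and 7.18, each to the right of its cross.

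The clearest contrast between zones among paired transcripts was the ALMT family match EES05741. Under LP it went from 3.62 and 5.16 to 86.5 and 86.8 CPM in the elongation zone, and from 2.17 and 2.40 to 0.0996 and 0.196 CPM in the root apex. It thus rose in the segment at 2 to 4 cm (log2 fold change 4.30) and fell in the first 2 cm (log2 fold change -3.82; edgeR, adjusted p = 0.0358). Both root apex LP values rest on very few counts, so the size of that fall is uncertain. Root apex LP replicate 2 is also the library whose tissue label names the whole root. The lateral SP library held it at 5.51 CPM and the lateral LP library at 7.72 CPM. The difference in log2 fold change was 8.11 to the root apex (edgeR, adjusted p = 0.0413) and 3.81 to the lateral root apex (edgeR, adjusted p = 0.0412). The latter p takes its spread from the other zones, since the lateral root apex has 1 library per level. The difference to the root apex did not pass when any 1 root apex library or either SP library of the elongation zone was left out, as then no transcript passed. For the difference to the lateral root apex no transcript passed without any 1 SP library of the elongation zone or of the root apex. The difference to the root apex rests on groups of 2 libraries that did not overlap in either zone.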

How the data were processed

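Poly-A RNA of root segments was sequenced by the authors. After Trimmomatic and SAMtools, they used kallisto with the v3.4.1 sorghum genome. Per transcript, the deposited values are estimated counts, not normalized, and the deposited TPM values and transcript lengths (other values, not tested) come from the same kallisto run. Versions of these tools: not given in the sources used here. Bisulfite tables were not used here.

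Estimated counts were rounded and fitted in edgeR 4.0.16 (limma 3.58.1, R 4.3.3) to all 10 RNA-seq libraries as 6 groups, with TMM scaling, filterByExpr and the quasi-likelihood test, 4 residual degrees of freedom and a common dispersion of 0.346. The filter kept 33039 of 47110 transcripts. Contrasts were LP against SP in each zone and their differences between zones, adjusted by Benjamini and Hochberg over all tested transcripts at 0.05. Standard errors were the log2 fold change divided by the root of F. The lateral libraries, 1 per level, were assumed to vary like the others. Root apex LP replicate 2, whose tissue label names the whole root, was kept by its title. Floors use 3 counts over a group and cover counting error only. Replicates were separate pools of plants per the methods.

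Transcripts were paired with genes only through the study's supplementary tables, as no transcript ID was found among the 32945 genes of the available RefSeq table. All transcripts of the phosphate lists were named, with all called paired transcripts, the largest further paired changes up to 25 in all, the 2 largest rises and 2 largest falls without a gene, and for each other list up to 2 members per direction at a mean of at least 5 CPM, of which the text gives some. The zones, lists and rules were chosen with earlier results of these data known. Alternatives were DESeq2 1.42.0 (the tool the authors used), RLE factors, no filter, the elongation zone alone, blocks for replicate number and fragment length, a length offset and leaving out libraries. The code was checked on simulated counts with a dispersion of 0.05, lower than that of the data, so the check bears on the code and not on the power of these libraries.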

Additional observations from a re-analysis of the deposited data

Results flagged for a closer look

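The difference in the phosphorus response between zones was tested, and these transcripts passed, chosen for that after their values were seen. Against the root apex, EES05741 had a difference in log2 fold change of 8.11, with the values given above. KXG37548, which has no gene, had no LP count in the elongation zone (20.6 and 33.2 CPM in SP) and no SP count in the root apex (66.7 and 83.5 CPM in LP). Its fitted difference of -24.93 depends on these groups without counts and is not a size. EER96724, also without a gene, went from 0.517 and 0.524 to 99.3 and 97.3 CPM in the elongation zone and from 0.725 and 0.819 to 5.78 and 6.07 CPM in the root apex, a difference of 4.61. KXG36521, without a gene, went from 5.40 and 4.59 to 38.3 and 52.1 CPM in the elongation zone and from 6.32 and 5.73 to 0.498 and 0.718 CPM in the root apex, a difference of 6.45. All 4 had an adjusted p of 0.0413 in edgeR.

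Against the lateral root apex, which has 1 library per level, 4 of the named transcripts passed in edgeR (adjusted p 0.0335 to 0.0488), with the spread taken from the other zones, and none did without any 1 SP library of the elongation zone or root apex. EES05741 differed by 3.81. EES08951, the MCA2 match, differed by -4.08, being at 3.53 CPM in lateral SP and 11.7 CPM in lateral LP. EER92606, the inositol tetrakisphosphate kinase match, had no count in lateral SP and 5.88 CPM in lateral LP, with a fitted difference of -8.07. OQU82651 had no count in lateral SP and 1.21 CPM in lateral LP, with a fitted difference of -15.96. The last pair of values rests on groups without counts. Whether the single lateral SP library, where 384 transcripts at 1 CPM or more in each other library had no count, gave these differences was not tested.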

How the results depend on the processing

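The direction of the 14 called paired transcripts held under all 16 alternatives. This is little of a test, since their LP and SP libraries did not overlap and the counts were the same. The number of calls did not hold. For LP against SP in the elongation zone the count went from 214 to 447 without the filter, 2181 with DESeq2 and 0 in the 4 elongation zone libraries alone, and leaving out libraries gave 0 to 4192. For the difference to the root apex it went from 4 to 70 without the filter, 942 with DESeq2, 0 with the fragment length block and 0 to 1488 without single libraries. For that to the lateral root apex, 282 became in the same order 472, 3324, 98 and 0 to 5440. The 8 phosphate transcripts became 0 in the elongation zone alone and 0 to 10 without single libraries. All 14 were called with RLE factors, DESeq2, no filter, the length offset and without LP replicate 1, 12 with the fragment length block (EES08951 and OQU82651 lost), 10 without LP replicate 2, 7 without either root apex LP library, 3 without either root apex SP library, and 0 in the elongation zone alone or without either of its SP libraries.

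The replicate numbers are not said to mark a shared batch, and deviations of same-numbered elongation zone libraries correlated with r = 0.135 (0.006 in the root apex), so they were not treated as pairs. Same-numbered elongation zone libraries did share an estimated fragment length, as given above. That length was 185 to 190 bases in the root apex libraries and 168 and 169 in the lateral ones, so it also differed between zones. Whether it marks a shared preparation was not tested. With a replicate block in all 10 libraries 115 transcripts passed in the elongation zone, 101 of them among the 214, 0 for the difference to the root apex and 143 for that to the lateral root apex. Of the 14, 11 passed with this block, and EES04197, EES08951 (adjusted p = 0.0536 in edgeR) and OQU82651 did not. With a replicate block in the 4 elongation zone libraries 0 passed, and 0 of the phosphate transcripts.

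Some uncalled transcripts changed sign when a library was left out. Their log2 fold changes ranged from -9.76 to 0.66 for KXG32384, -8.09 to 8.72 for KXG37822, -2.73 to 0.66 for OQU77835, -6.78 to 5.11 for OQU82103, -6.41 to 6.32 for OQU87648, -0.92 to 1.10 for OQU87661 and -9.04 to 1.00 for OQU87662. The cause of these changes was not tested. Precision is limited by 2 libraries per level and by transcripts without counts in LP replicate 2.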

Other observations

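Among 11 tested transcripts for nitrate and asparagine none passed in edgeR in the elongation zone. At an unadjusted p under 0.05, 2 were higher and 1 was lower, and with DESeq2 2 rose and 1 fell. Of the 11, 7 had a log2 fold change above 1, as did 22.4% of all tested transcripts. In 1 it was below -1, as in 16.4% of all tested. Over all tested transcripts 0.648% passed in edgeR, 14.6% had an unadjusted p under 0.05 and DESeq2 called 6.6%, so 0 calls in a list of this size says nothing about it. KXG39588, matched to the asparagine synthetase ASN1, was at 441 and 469 CPM in SP and at 1105 and 1336 CPM in LP, with a log2 fold change of 1.42 (SE 0.30; edgeR, adjusted p = 0.103). EES09082, a second ASN1 match, was at 17.7 and 8.87 CPM in SP and at 112 and 30.2 CPM in LP, where the LP replicates lay far apart. The NIA2 match EES07601, also on this list, was lower in LP, with a log2 fold change of -3.02 (edgeR, adjusted p = 0.0543).

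Of 6 tested WRKY transcripts none passed in edgeR, against the same 0.648%. At an unadjusted p under 0.05, 1 was higher and 2 were lower, and the 1 that DESeq2 called fell. EES04642, matched to WRKY40, was at 37.9 and 51.7 CPM in SP and at 145 and 115 CPM in LP (edgeR, adjusted p = 0.261). Among 6 tested transcripts for metal chelate and peptide transport none passed in edgeR, and the median log2 fold change was -0.01. EES11137, matched to a yellow stripe-like transporter, was at 5.40 and 5.90 CPM in SP and at 14.5 and 42.0 CPM in LP (edgeR, adjusted p = 0.166). Of the others at a mean of at least 5 CPM, KXG26749 had a log2 fold change of 1.54, OQU85362 of -0.58 and EER90865 of -0.45. The GRAS transcript OQU84112 was at 10.2 and 10.0 CPM in SP and at 3.21 and 3.08 CPM in LP, even between replicates, with a log2 fold change of -1.68 that did not pass (SE 0.32; edgeR, adjusted p = 0.0817).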
